A study of Mus musculus with 9 samples.

Results

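Oxidative phosphorylation couples electron transport along the inner mitochondrial membrane to ATP synthesis. NADH dehydrogenase (complex I) and succinate dehydrogenase (complex II) feed electrons into ubiquinone, the cytochrome bc1 complex (complex III) passes them to cytochrome c, cytochrome c oxidase (complex IV) transfers them to oxygen, and ATP synthase (complex V) uses the resulting proton gradient. Most subunits are encoded in the nucleus and imported, whereas a few core subunits of complexes I, III, IV and V are encoded by the mitochondrial genome, so that each of these complexes is built from 2 genomes. Acute myeloid leukemia progenitors are known to rely on this pathway.

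The nuclear-encoded genes were chosen by name. Gene names starting with Nduf, Uqcr, Cox4 to Cox8, Sdha to Sdhd or Atp5 were taken, names of pseudogene copies were left out, and a mean normalized count of at least 10 was required over the 6 pre-malignant and stably expanded libraries. The names matched 98 of the 55401 genes in each table, and 87 of them passed the limit. The 87 genes comprised 77 structural subunits, namely 36 of complex I (7 core and 29 accessory), 4 of complex II, 8 of complex III, 13 of complex IV and 16 of complex V. The name rule also caught 8 assembly factors of complex I (Ndufaf genes) and 2 further genes, Cox7a2l, a supercomplex assembly factor, and Atp5s. Cyc1, the cytochrome c1 subunit of complex III, falls outside the rule and is given with the other genes of the pathway. The mean of the limit did not use de novo expanded libraries, and all 87 genes were also tested in both comparisons with that group.

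RNA-Seq libraries of 3 groups were compared, with 3 libraries each. All cells derived from H9M cells, that is, lineage-negative bone marrow of C57BL/6-Ly5.1 mice transduced with a retrovirus for Meis1 and Hoxa9 and carrying a fluorescent barcoding vector. Single-cell derived clones, each with its own color code, were pooled and given to lethally irradiated C57Bl6/J mice together with helper bone marrow. Splenocytes were sorted by color code within a CD45.1+ EGFRt bright, cKit+, CD11b dim or negative gate. The pre-malignant group came from mouse #15, killed 4 weeks after transplantation, and held 1 library each of clone 43BC-D, clone 38BC-D and clone 33BC-D. The de novo expanded group consisted of the same clones at the leukemic endpoint, from mouse #14, #13 and #17, respectively. The stably expanded group was clone 34BC-D from these 3 endpoint mice. All pre-malignant libraries came from 1 mouse and all stably expanded libraries from 1 clone, so group, mouse and clone cannot be told apart in comparisons that involve them, and p-values measure only the spread between these libraries. Columns of the tables name a group but not a sample. Library numbers 1 to 3 are therefore only names and stand for no clone or mouse.

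Reads on genes ranged from 10379739 to 15551196 per library. The sorting marker Kit was measured at 1937 to 3979 normalized counts and Ptprc (CD45) at 4238 to 5216 in every library. De novo expanded library 3 stood apart from libraries 1 and 2 of its group. Its count for Mpo, a granule peroxidase of promyelocytes, was 218137 against 22355 and 36037. Mpo was measured at 85054 to 95651 counts in pre-malignant and 101104 to 123617 in stably expanded libraries. Libraries 1 and 2 thus lay below and library 3 above both other groups. Without library 3 the number of all genes called rose from 0 to 621 against the pre-malignant group and from 1 to 925 between both leukemic groups. Results are therefore also given without it, a choice made after these values were seen. Each library of this group is a different clone, so these fits also leave out 1 clone. The summed count of 7 erythroid markers was 326 to 769 in pre-malignant, 43.3 to 255 in de novo expanded cells and 55.1 to 421 in the stably expanded clone. That of 7 B cell markers, mostly Ighm, was 2912 to 3491, 1030.0 to 2781 and 1179 to 1426, and that of 7 mature neutrophil markers was 2429 to 2972, 2001.2 to 7684 and 7269.8 to 58846, respectively. Ngp was the largest part of the neutrophil sum in every library, at 1411 to 1777, 989 to 4881 and 5013.5 to 36130 counts. Mmp8 of the same list did not share the higher values, with 15.8 to 19.96, 2.28 to 17.1 and 3.62 to 18.8 counts. Retnlg was at 10.7 or less in every library. The 7 macrophage markers summed to 1257 to 2610, 850.2 to 3363 and 2439 to 3198 counts, with C1qa at 5.23 or less. The 6 T cell markers summed to at most 41.9 and the 5 platelet markers to at most 42.5 counts in any library, with Ppbp at 0 in all. The part of these cell types in the results below was not tested. In bulk samples fewer cells of a type and less RNA per cell cannot be told apart.

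Levels are given as normalized counts per library (reads divided by a size factor from all 9 libraries). Fold changes are log2 values from limma on log2(normalized count + 1), fitted to the authors' own scaling of the 6 libraries of each comparison, so the ratio of 2 printed levels can deviate slightly from the fold change. Calls were made at adjusted p under 0.05, with the adjustment over all genes tested.

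Every complex was represented by abundant transcripts. The mean count behind a gene over the 9 libraries ranged from 21.4 for Cox4i2 to 7439 for Atp5b, with a median of 609. Per kilobase of annotated exon the order of mean levels ran from 23.7 for Ndufb4 to 1756 for Atp5b, the catalytic β subunit of ATP synthase. Cox8a followed with 1602, Cox4i1 with 1365, Atp5c1, the γ subunit of ATP synthase, with 1131 counts per kilobase. The highest level per kilobase in complex I was that of Ndufb10 (1045), in complex II that of Sdha (736) and in complex III that of Uqcrfs1, the Rieske iron-sulfur protein (684). The length joins all annotated exons of a gene and is not that of a single transcript, so this order depends on the annotation. For Atp5b the libraries gave 6249, 6485 and 7580.4 counts in pre-malignant, 8382, 7676 and 7232 in de novo expanded cells and 8018, 8539 and 6785 in stably expanded cells, and the groups overlapped. Within a group the coefficient of variation of a gene over the 3 libraries had a median of 9.56% in pre-malignant, 10.4% in de novo expanded cells and 11.6% in stably expanded cells.

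Tissue isoforms showed which form of each subunit these progenitors used. Of the 11 matching names below the limit, Cox8b, Cox7b2 and a second identifier for Atp5o were listed at 0 reads in every library. The others were Cox6a2, Cox6b2, Cox7a1, Cox8c, Ndufa11b, Ndufa4l2, Ndufb4c and Ndufs6b, and none of them exceeded 15 reads in a library. Cox6a2, Cox7a1 and Cox8b are the heart and skeletal muscle forms of complex IV subunits and Cox6b2 is a testis form. Their ubiquitous counterparts were abundant, with 767 (Cox6a1), 447 (Cox7a2), 1464 (Cox8a) and 665 (Cox6b1) mean counts per kilobase in pre-malignant cells. Cox4i2, a hypoxia-inducible and lung form, was the gene just inside the limit. It gave 1.05, 29.8 and 47.1 counts in pre-malignant, 26.2, 28.8 and 4.51 in de novo expanded cells and 23.5, 19.3 and 12.1 in the stably expanded clone, with overlap between the groups. Per kilobase its mean level was 27.1 counts against 1365 for Cox4i1, which was measured at 1808, 1863 and 2116 counts in pre-malignant, 2505, 2226 and 2128 in de novo expanded cells and 2192, 2506 and 1704 in the stably expanded clone. Cox6b2 and Cox7a1 lay just outside, with means of 8.71 and 7.33. The 3 genes for the c subunit of the ATP synthase rotor differed in level. Per kilobase in pre-malignant cells Atp5g3 reached 435, Atp5g1 43.4 and Atp5g2 36.2 counts. Their annotated lengths were 2181, 4912 and 1675 bases, and their mean counts over the 9 libraries were 1076, 258 and 61.7. The size of these gaps therefore depends on the length used. These levels were compared without a test.

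Genes of this pathway are known targets of nuclear respiratory factors, which bind GC-rich motifs near the start site. Promoters of 3 genes are shown as examples of how these motifs lie, from the genes with the NRF1 core within 100 bases before the start site. RefSeq promoter windows (GRCm38.p6, 250 bases before to 50 after the start) were found for 70 of the 87 genes, in 75 windows. Capitals mark the NRF1 core (CGCATGCG or CGCACGCG) and the ETS core (CCGGAAG), searched on both strands, and each line reads 5′ to 3′ on the strand of the gene. Ndufa8 and Ndufa11 are accessory subunits of complex I, and Sdhd is a membrane anchor of complex II. The windows lie at chr2:36049339-36049438 (minus strand), chr17:56717662-56717761 (plus strand) and chr9:50603850-50603949 (minus strand).
Ndufa8: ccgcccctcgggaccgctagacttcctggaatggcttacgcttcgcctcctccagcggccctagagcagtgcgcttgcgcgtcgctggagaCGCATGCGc
Ndufa11: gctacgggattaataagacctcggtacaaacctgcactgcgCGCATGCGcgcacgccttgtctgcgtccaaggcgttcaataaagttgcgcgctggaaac
Sdhd: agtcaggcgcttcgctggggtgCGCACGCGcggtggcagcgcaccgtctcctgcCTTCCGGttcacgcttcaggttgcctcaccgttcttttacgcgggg

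The NRF1 core stood in 25.3% of the 75 windows, compared to 4.19% of all 32851 windows of the same length. The ETS core stood in 24% of them against 8.86% of all windows, and a YY1-like motif (AAGATGGCG) in 10.7% against 1.403%. At least 1 of these motifs was found in 49.3% of the windows and in 13.3% of all windows. These matches describe sequence and not binding. Of the 8 genes called below, 5 had a window, and only those of Atp5j and Uqcrc1 held any of the motifs.

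Comparing de novo expanded with pre-malignant cells asked whether the same clones changed while they grew out to leukemia. Levels of 81 of the 87 genes lay above those of pre-malignant cells, where 51% of all 14195 genes tested did so. The median log2 fold change was 0.24 (1.18-fold), compared to 0.01 over all genes tested. No gene was called, neither among the 87 nor among all genes (0%), and edgeR called none either, while DESeq2 called 99 of all genes. At an unadjusted p under 0.05, 23 genes were higher and 0 were lower, with a background of 5.99% higher and 5.26% lower over all genes. In 33 genes all de novo expanded libraries lay above all pre-malignant libraries (background 10.6%), and in 0 genes below (background 8.5%). Leaving out de novo expanded library 3 gave a median of 0.23, and 75 genes lay above 0, 25 were higher at an unadjusted p under 0.05, and 1, Cox7a2l, was lower. In that fit 1 of the 87 genes, Cox6c, was called (log2 fold change 0.55, adjusted p = 0.0262), while 621 of all 14195 genes tested were called. Cox6c was also called by DESeq2 (0.61, adjusted p = 0.0328).

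**Figure D1:**
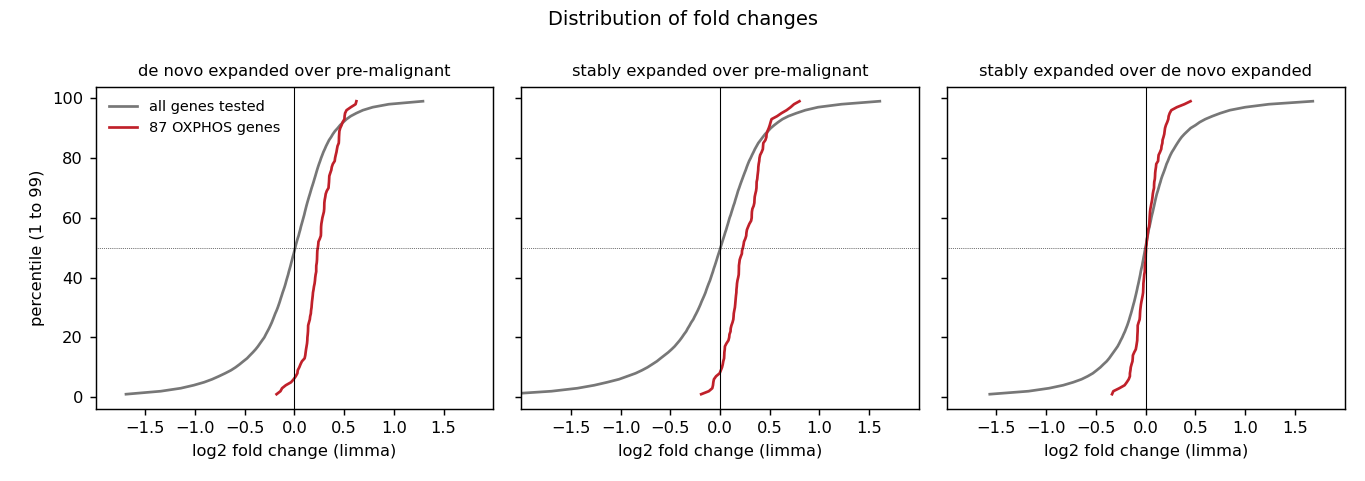
Cumulative distribution of log2 fold changes in the 3 comparisons, from the 1st to the 99th percentile (y axis), for all genes tested (grey) and the 87 OXPHOS genes (red), cut at ±2 on the x axis. In both comparisons with pre-malignant cells the red curve crosses the 50th percentile at 0.24 and 0.23, and between the leukemic groups both curves cross near 0.

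The 4 largest differences in this comparison belonged to Ndufb6 (0.64 ± 0.26 SE, adjusted p = 0.43), Uqcrb (0.62 ± 0.16, adjusted p = 0.36), Cox6c (0.61 ± 0.11, adjusted p = 0.32) and Ndufa8 (0.53 ± 0.14, adjusted p = 0.37), none of which was called. Ndufa8 was measured at 444, 502 and 601 counts in pre-malignant and at 751, 758 and 689 counts in de novo expanded libraries, without overlap. Ndufb6 shares 39.0% of its exonic bases with Smim27 on the opposite strand, and whether the counting used strand is not given in the sources used here. At the other end Cox7a2l was measured at 568, 503 and 585 counts in pre-malignant and 366, 474 and 567 in de novo expanded libraries (−0.24 ± 0.18). Ndufs6, Ndufs8 and Ndufaf5 had log2 fold changes of −0.17, −0.13 and −0.12 with overlapping groups.

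The stably expanded clone was compared with pre-malignant cells next, a contrast of different clones. Of the 87 genes, 80 lay above pre-malignant levels (50.5% of all 13968 genes tested), with a median log2 fold change of 0.23 (1.17-fold) against 0.00 over all genes. Limma called 8 genes, all higher: Cox6c, Ndufv3, Ndufb10, Uqcrb, Atp5j, Ndufc2, Atp5mpl and Uqcrc1. This share, 9.2%, was close to the background of 7.95% called in either direction. In the higher direction alone the background was 4.34%, and none of the 87 genes was called lower, while 504 of all genes were. No member passed a 2-fold limit (background 2.75%). At an unadjusted p under 0.05, 27 genes were higher and 0 lower, with a background of 13.2% and 12.3%. The groups did not overlap in 32 genes that were higher (background 16.1%) and in 0 that were lower (background 14.6%).

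**Figure D2:**
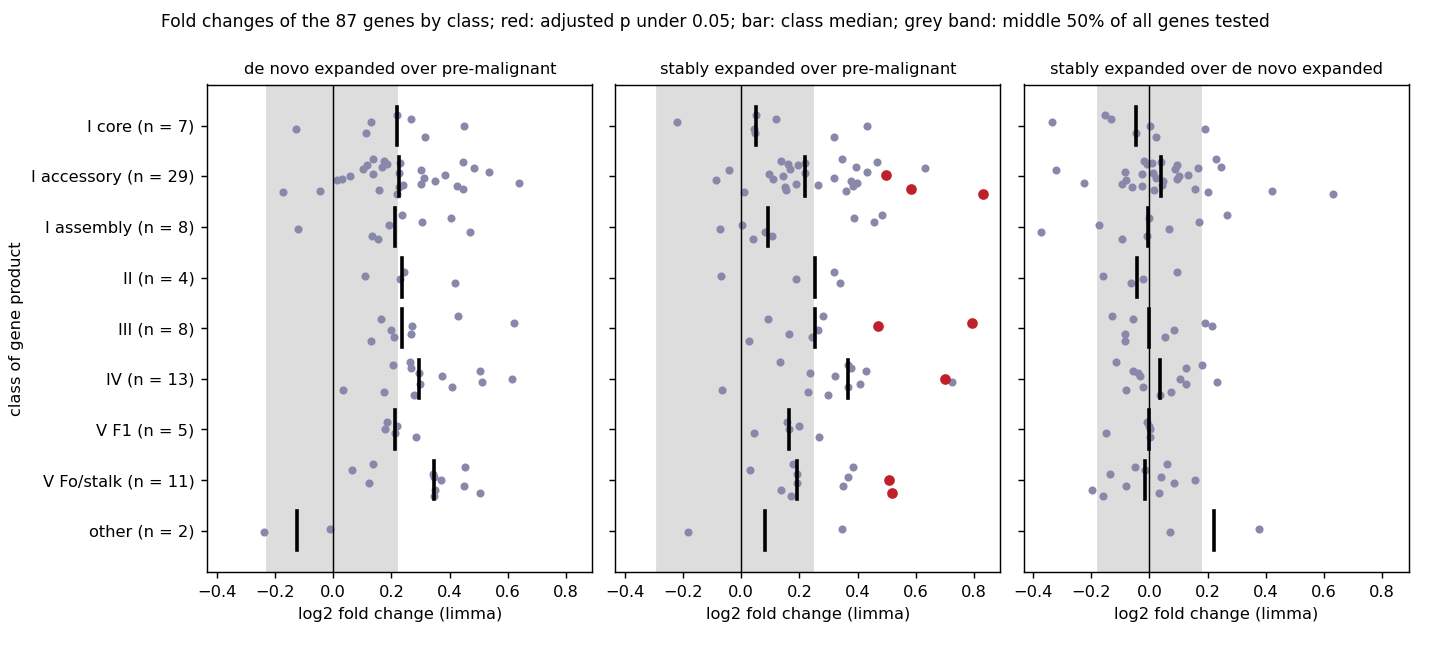
Log2 fold change (x axis) of each of the 87 genes by class of gene product (y axis) in the 3 comparisons, with called genes in red, class medians as bars and the middle 50% of all genes tested as a grey band. Class medians lie right of 0 in both comparisons with pre-malignant cells except for the 2 other factors in the de novo expanded group, and the 8 red points stand in the middle panel.

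Of the called genes, Cox6c, a small nuclear-encoded subunit of cytochrome c oxidase, had the lowest adjusted p. Its levels were 1006, 1172 and 1088 in pre-malignant, 1510.0, 1632 and 1790.3 in de novo expanded cells and 1728, 1766 and 1798 in the stably expanded clone. All leukemic libraries lay above all pre-malignant ones. The log2 fold change of the stably expanded clone was 0.70 ± 0.10 SE (1.62-fold, adjusted p = 0.00455), and it passed the threshold in each of 6 fits that left out 1 library. Cox6c (ENSMUSG00000014313.15) lies on chr15:35925886-35938246 on the minus strand (GRCm38, gene span).

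Ndufv3, an accessory subunit next to the NADH-oxidizing module of complex I (ENSMUSG00000024038.17, chr17:31520115-31531331, plus strand), had the largest difference. It was measured at 608, 690.4 and 610.4 counts in pre-malignant and at 1376, 934 and 1121 in the stably expanded clone (0.83 ± 0.14, 1.78-fold, adjusted p = 0.00882). In de novo expanded cells libraries 1 and 2 were at 604 and 476, whereas library 3 was at 1351. The difference between de novo expanded and pre-malignant cells was 0.22 ± 0.35 and became −0.23 without that library. Accordingly, the stably expanded clone exceeded the de novo expanded group by 0.63 ± 0.37 (adjusted p = 0.89) with all libraries and by 1.07 (adjusted p = 0.0097) without library 3. Library 3 held the highest Ndufv3 level of its group and was left out after values had been seen. The call without it therefore gives no support of its own.

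Uqcrb, the ubiquinone-binding subunit of complex III (ENSMUSG00000021520.4, chr13:66900617-66905378, minus strand), was measured at 179.7, 187 and 213 counts in pre-malignant, 269, 310.3 and 301 in de novo expanded cells and 321, 295 and 396 in the stably expanded clone. The stably expanded clone was 1.73-fold higher (0.79 ± 0.17, adjusted p = 0.0214). Uqcrc1, a core protein of the same complex (ENSMUSG00000025651.14, chr9:108936633-108949623, plus strand), was at 835, 805 and 896 in pre-malignant and at 1362, 1166 and 1003 in the stably expanded clone (0.47 ± 0.12, adjusted p = 0.0452). Its de novo expanded libraries 1 and 2 (895 and 916) stayed at the pre-malignant level, with the first below the highest pre-malignant library, and library 3 reached 1241. The other core protein, Uqcrc2, was not called (0.26 ± 0.16, adjusted p = 0.34).

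Among membrane arm subunits of complex I, Ndufb10 (ENSMUSG00000040048.14, chr17:24722060-24724478, minus strand) was higher in the stably expanded clone, with 1388, 1351 and 1621 against 1014, 991 and 1076 counts in pre-malignant cells (0.50 ± 0.10, adjusted p = 0.0204). Ndufc2 (ENSMUSG00000030647.8, chr7:97400003-97407802, plus strand) was measured at 467, 543 and 446 against 348, 276 and 348 counts (0.58 ± 0.15, adjusted p = 0.0396). Both were also higher in every de novo expanded library, at 1129 to 1572 and 418 to 442 counts, but were not called there (adjusted p = 0.41 and 0.40).

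In complex V, Atp5j, the stalk subunit F6 (ENSMUSG00000022890.13, chr16:84827866-84835625, minus strand), was higher in the stably expanded clone, with 1781, 1580.2 and 2023 against 1093, 1279 and 1419 counts (0.51 ± 0.13, adjusted p = 0.0345). It shares 12.7% of its exonic bases with Gabpa on the opposite strand. Atp5mpl, the small subunit also named 6.8PL (ENSMUSG00000021290.6, chr12:111961375-111966977, minus strand), was measured at 1031, 1076 and 1276 against 659, 873 and 838 counts (0.52 ± 0.13, adjusted p = 0.0414).

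**Figure D3:**
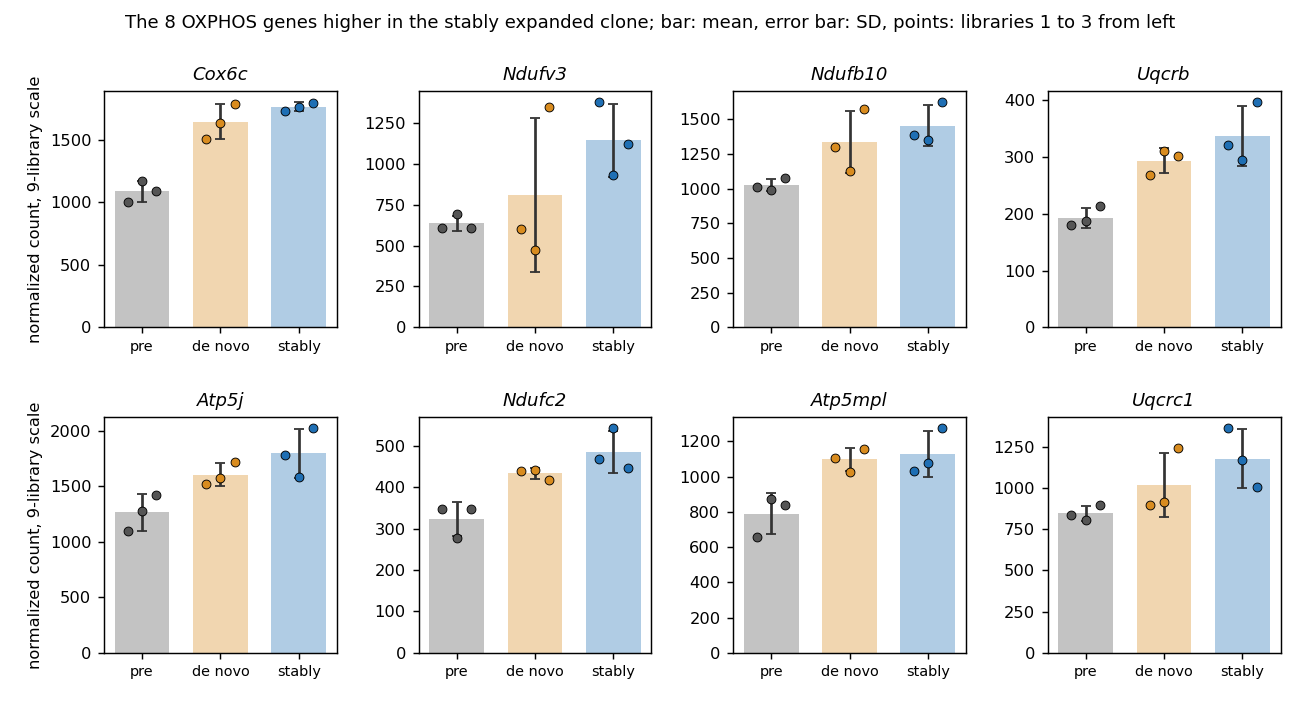
Normalized counts (y axis, 9-library scale, from 0) of the 8 called genes in pre-malignant, de novo expanded and stably expanded cells, with points for libraries 1 to 3, bars for means and error bars for the SD. No stably expanded point falls to the level of a pre-malignant point, and de novo expanded library 3 of Ndufv3 lies at 1351 while libraries 1 and 2 lie at 604 and 476.

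How many genes were called depended on single libraries. Of 6 fits that left out 1 library, Cox6c and Ndufv3 were called in 6, Ndufb10 in 4 and Uqcrb in 3. Atp5j was called in 2, Ndufc2 and Uqcrc1 in 1 each and Atp5mpl in 0. Without pre-malignant library 1 or 2 there were 2 calls each, Cox6c and Ndufv3, and without library 3 there were 5. In these fits the calls over all genes fell from 1110 to 486, 369 and 544. Without stably expanded library 1, 2 or 3 there were 4, 5 and 8 calls, with 499, 1006 and 1093 over all genes, and fitting all 9 libraries at once left 0 calls while only 8 of all genes were called. Ndufa5 (0.63 ± 0.17, adjusted p = 0.0514) and Sdha, the catalytic flavoprotein of complex II (0.32 ± 0.09, adjusted p = 0.0545), lay just beyond the threshold. Sdha was measured at 2486, 2626 and 2904 counts in pre-malignant, 3306, 2986 and 3053 in de novo expanded cells and 3253, 3399 and 3319.9 in the stably expanded clone, without overlap.

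The direction was shared by the complexes while its size varied. In the stably expanded clone the median log2 fold change was 0.37 for 13 complex IV genes (12 above 0), 0.25 for complex II (3 of 4 above 0), 0.25 for complex III (8 of 8), 0.21 for the 36 structural subunits of complex I (33 above 0) and 0.19 for complex V (16 of 16). In de novo expanded cells the same medians were 0.29 (13 of 13), 0.24 (4 of 4), 0.24 (8 of 8), 0.22 (33 of 36) and 0.31 (16 of 16). The complex IV median of the stably expanded clone is the value of Cox4i2, a gene of few reads whose sign depends on the tool, and without it the median of the other 12 genes was 0.35 (11 above 0). The 7 core subunits of complex I, which carry the flavin and iron-sulfur clusters, had a median of only 0.05 in the stably expanded clone and 0.22 in de novo expanded cells. The differences between classes were not tested.

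The 14 core subunits listed across all complexes had medians of 0.16 (12 above 0) and 0.22 (13 above 0) in stably and de novo expanded cells. The list holds the core proteins Uqcrc1 and Uqcrc2 of complex III beside catalytic subunits. Uqcrc1, which is not a catalytic subunit, was the only one called, where 4.34% of all genes were called higher in the stably expanded clone. Ndufs7 (0.43 and 0.45) and Ndufv2 (0.32 and 0.32) were higher in all 6 leukemic libraries than in any pre-malignant one. Ndufs7 was measured at 535, 511 and 535 counts in pre-malignant, 851, 606 and 695 in de novo expanded cells and 627, 676 and 847 in the stably expanded clone. Ndufs1 (0.05 and 0.22), Ndufv1 (0.05 and 0.11), Sdhb (−0.07 and 0.11), Uqcrfs1 (0.17 and 0.27), Atp5a1 (0.16 and 0.18) and Atp5b (0.20 and 0.22) were not called, and Ndufs8 had values of opposite sign (0.04 and −0.13). Ndufs3 was low at 45.7 to 95.7 counts and had the most negative value against pre-malignant cells in the stably expanded clone (−0.22 ± 0.29), followed by Cox7a2l (−0.18), Ndufb4 (−0.09) and Ndufaf5 (−0.07). Cox6c2, which was measured at only 26.3 to 69.8 counts, had one of the largest values (0.72 ± 0.34) but was not called. Its annotated length was 231 bases, and whether reads of Cox6c were counted on it was not tested.

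Counted over the 9 libraries, 19 of the 87 genes were higher in all 6 leukemic libraries than in all 3 pre-malignant libraries (background 5.22% of 13960 genes). These were Ndufa5, Ndufa9, Ndufa11, Ndufb9, Ndufb10, Ndufc2, Ndufs7 and Ndufv2 of complex I, Sdha of complex II, Uqcrb of complex III, Cox5b, Cox6a1, Cox6c, Cox7a2 and Cox7b of complex IV and Atp5f1, Atp5g1, Atp5j and Atp5mpl of complex V. They include 5 of the 13 complex IV genes and none of the 8 assembly factors. Of Ndufb9, 19.5% of the exonic bases are shared with Gm49356 on the same strand.

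**Figure D4:**
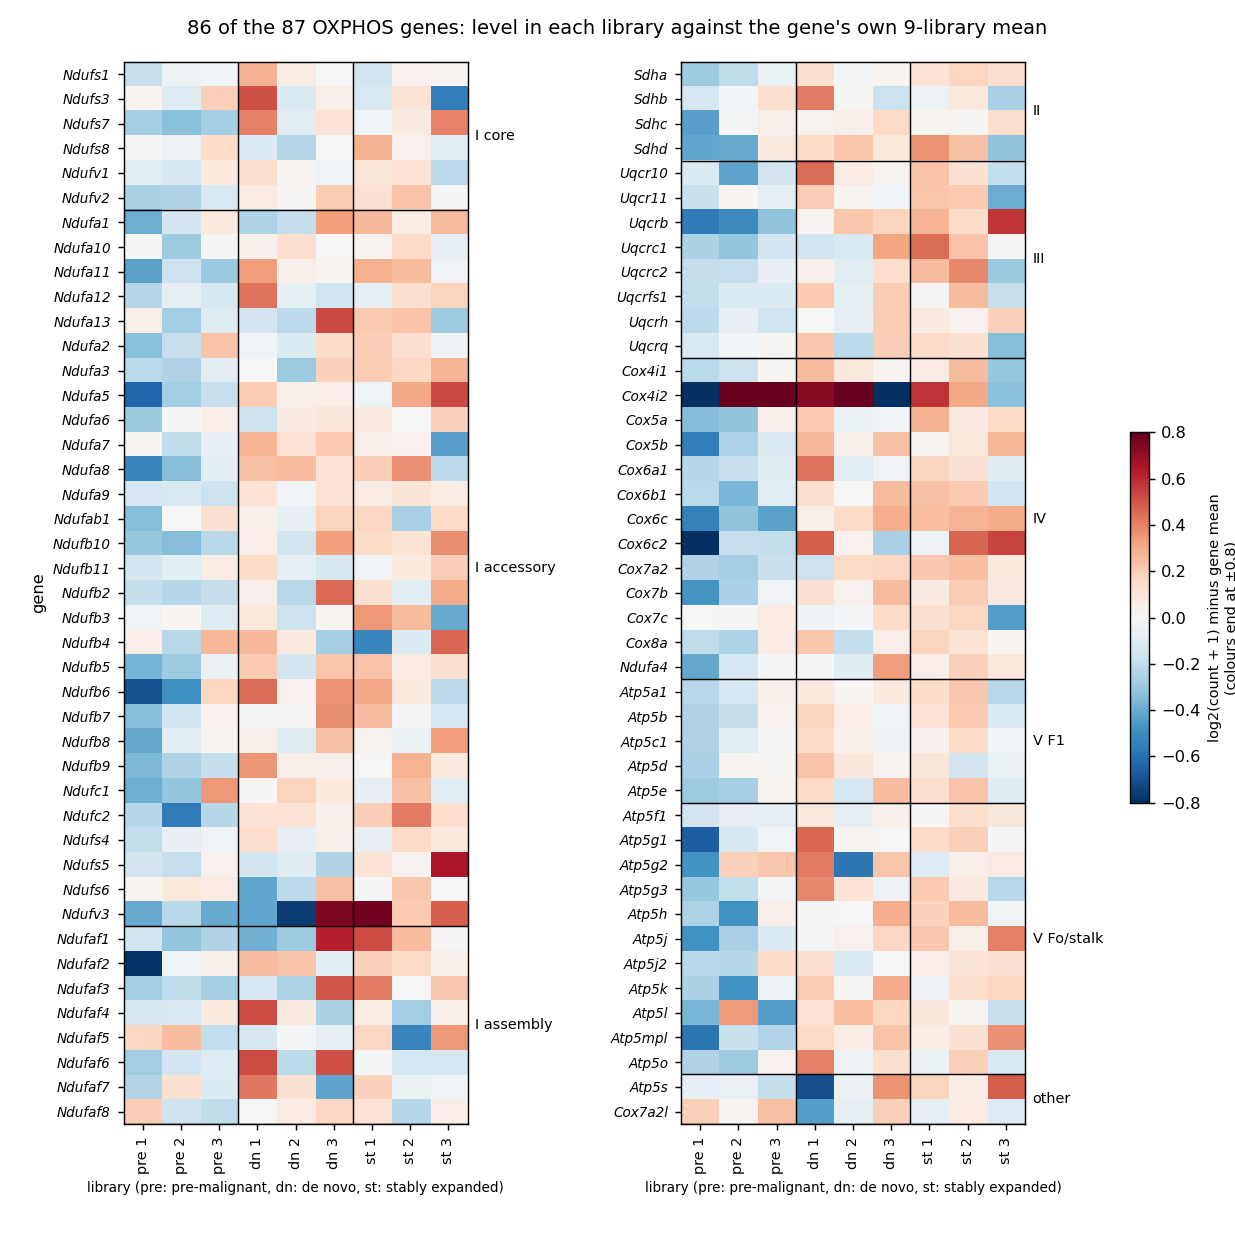
Level of 86 of the 87 genes (rows, by complex) in the 9 libraries (columns), as log2(normalized count + 1) minus the mean of the gene, with colours from −0.8 (blue) to 0.8 (red). Pre-malignant libraries 1 and 2 are mostly blue (medians over the 87 genes of −0.24 and −0.18), library 3, de novo expanded library 2 and stably expanded library 3 are near 0 (−0.03, 0.00 and 0.02), and the other 4 leukemic libraries are mostly red (medians 0.11 to 0.13).

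Libraries differed within groups. The median deviation of the 87 genes from their own 9-library mean was −0.24, −0.18 and −0.03 in pre-malignant, 0.13, 0.00 and 0.11 in de novo expanded cells and 0.12, 0.13 and 0.02 in the stably expanded clone. Hence pre-malignant library 3, de novo expanded library 2 and stably expanded library 3 lay close to each other, with 37, 44 and 47 genes above their mean. Pre-malignant and leukemic libraries did not overlap in the share of reads on the 87 genes, which was 0.392%, 0.423% and 0.464% in pre-malignant, 0.525%, 0.479% and 0.512% in de novo expanded cells and 0.513%, 0.537% and 0.476% in the stably expanded clone. Complex I subunits took 13.1 to 15.1 of 10000 reads in pre-malignant and 15.4 to 17.5 in leukemic libraries, and complex IV subunits 5.79 to 7.07 and 7.54 to 8.66, respectively. The ranges of the other complexes overlapped, with 3.05 to 3.81 and 3.78 to 4.28 for complex II, 3.54 to 3.84 and 3.77 to 4.86 for complex III and 12.3 to 15.1 and 14.6 to 17.1 for complex V. Without pre-malignant library 1 the median log2 fold change was 0.20 in de novo and 0.18 in stably expanded cells, and without library 3 it was 0.31 and 0.30.

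Between stably and de novo expanded cells, the genes of this pathway had a median difference close to 0. The median log2 fold change was 0.00, with 47 of 87 genes above 0 (49.6% of all 13758 genes tested). None was called by limma, where the background was 0.00727%, nor by edgeR or DESeq2, which called 1 and 37 of all genes, and at an unadjusted p under 0.05 there were 0 genes in either direction (background 2.72% higher and 2.11% lower). The groups did not overlap for Ndufc2 and Ndufs5, which were higher (background 4.66%), and Ndufa7 and Atp5l, which were lower (background 4.95%). For 82 genes the 95% confidence interval of the log2 fold change lay between −1 and 1, and for 52 between −0.5 and 0.5, so the intervals of most genes did not reach 2-fold but left room for smaller differences. The most positive values belonged to Ndufv3 (0.63), Ndufs5 (0.42), Atp5s (0.38) and Ndufaf1 (0.27), and the most negative to Ndufaf6 (−0.37), Ndufs3 (−0.33), Ndufa7 (−0.32) and Ndufb6 (−0.22). Ndufaf1, an assembly factor of complex I, was at 80.9 and 86.3 counts in de novo expanded libraries 1 and 2 and at 163 in library 3, against 152, 126 and 105 in the stably expanded clone. Without de novo expanded library 3, 3 genes (Ndufa1, Ndufv3 and Uqcrc1) were higher in the stably expanded clone at an unadjusted p under 0.05. In that fit 1 of the 87 genes, Ndufv3, was called, while 925 of all 13758 genes tested were called. In Ndufa1, Ndufv3 and Uqcrc1 the left-out library held the highest level of its group, so these differences give no separate support.

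The mitochondrially encoded subunits showed values of opposite sign. Of 13 such genes 8 passed the limit in all comparisons. Their median log2 fold change was −0.22 in the stably expanded clone (0 of 8 above 0) and −0.11 in de novo expanded cells (3 of 8 above 0). mt-Cytb, the cytochrome b of complex III, was called lower in the stably expanded clone (−0.45 ± 0.11, adjusted p = 0.0372), with 26245, 24452 and 24424 counts in pre-malignant, 18355, 23574 and 20586 in de novo expanded cells and 16542, 17256 and 21604 in the stably expanded clone. The other 5 mitochondrial genes, mt-Atp6, mt-Atp8, mt-Co2, mt-Co3 and mt-Nd4l, had at most 14.5 counts in any library, whereas mt-Co1 had 29534 to 42011. How reads that match several places were counted is not given in the sources used here. These low values therefore cannot be read as low expression. The shares that follow rest almost wholly on the other 8 genes. All 13 genes together took 0.915%, 0.971% and 0.871% of reads in pre-malignant, 0.7995%, 0.965% and 0.774% in de novo expanded cells and 0.676%, 0.717% and 0.959% in the stably expanded clone, so the groups overlapped. Per 100 reads on mitochondrially encoded subunits there were 42.8, 43.6 and 53.3 reads on the 87 nuclear genes in pre-malignant, 65.7, 49.7 and 66.1 in de novo expanded cells and 75.8, 74.9 and 49.7 in the stably expanded clone. De novo expanded library 2 and stably expanded library 3 fell within the pre-malignant range, and the other 4 leukemic libraries lay above it.

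**Figure D5:**
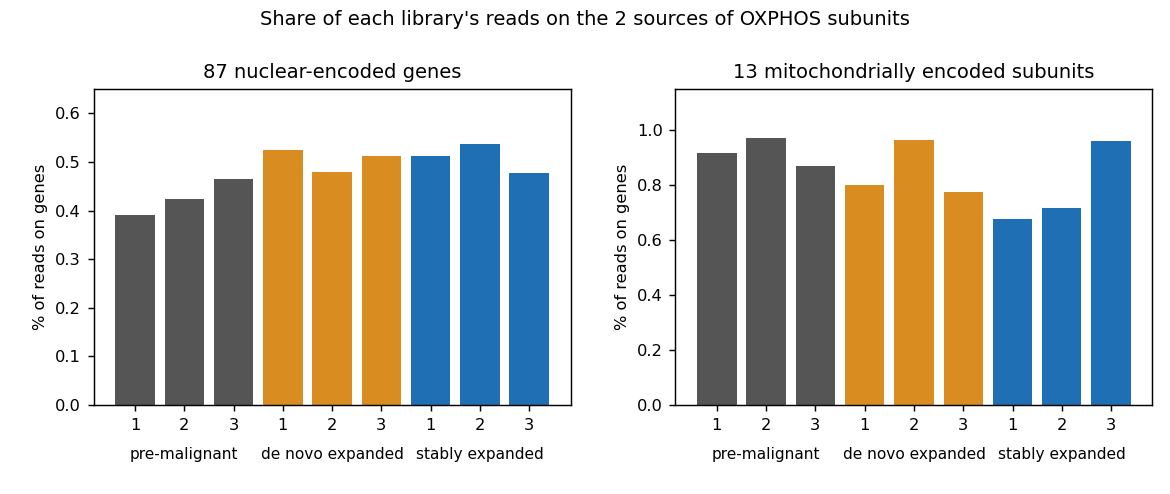
Percentage of reads on genes (y axis) that fell on the 87 nuclear-encoded genes (left) and on 13 mitochondrially encoded subunits (right) in each of 9 libraries (x axis). The nuclear share is 0.392 to 0.464% in pre-malignant and 0.476 to 0.537% in leukemic libraries, while the mitochondrial shares of the groups overlap.

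Other genes of the pathway were counted in lists. Cyc1 and Cycs, for cytochrome c1 and cytochrome c, had log2 fold changes of 0.16 and 0.13 in the stably expanded clone and 0.23 and 0.32 in de novo expanded cells, and neither was called. Of 42 tested assembly factors of the complexes (other than the Ndufaf genes), 1 was called higher in the stably expanded clone and 0 lower, with a median of 0.12, a share below the 4.34% of all genes called higher. This was Coa3, an assembly factor of cytochrome c oxidase, with 295, 247 and 287 counts in pre-malignant, 286, 245 and 397 in de novo expanded cells and 459.7, 419 and 409.6 in the stably expanded clone (0.64 ± 0.14, adjusted p = 0.0242). Of 18 enzymes of the TCA cycle, 13 coenzyme Q synthesis genes, 15 regulators of mitochondrial gene expression and 5 genes for uncoupling and respiratory bypass, none was called in any comparison. Their medians in the stably expanded clone were 0.12, 0.12, 0.00 and 0.12, and in de novo expanded cells 0.14, 0.06, 0.11 and 0.08.

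The genes of the pathway are short, and the part of gene length in the results was not tested. The median annotated length of the 87 genes was 1718 bases compared to 3770 over the genes tested against the stably expanded clone. Other genes between 1032 and 2843 bases, the middle 50% of the 87, had a median log2 fold change of 0.05 in both comparisons with pre-malignant cells, and 55.4% (de novo) and 54.9% (stably expanded) of them lay above 0. The 43 genes of the pathway in that span had medians of 0.24 and 0.17.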

How the data were processed

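RNA from few sorted cells was made into stranded total RNA libraries. Per the labels and the study's methods, reads were trimmed with Trim Galore 0.6.4, aligned with STAR 2.6.1d to GRCm38.p6 and counted per gene with featureCounts 1.6.4. The strand setting of the counting is not given in the sources used here. The authors deposited 3 tables of 6 libraries each, whose signal values are read counts divided by DESeq2 size factors. Their columns of fold changes and p-values were not used. The tables also hold gene lengths, used here for levels per kilobase.

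Whole reads were recovered from the deposited values (at least 99.9954% of values above 0 came within 0.05 reads of a whole number), and their totals give the depth per library. Genes whose mean over the 6 libraries of a table reached 10 normalized counts were tested two-sided with limma 3.58.1 (R 4.3.3) on log2(normalized count + 1), with the variance trend, and p-values were adjusted by Benjamini-Hochberg over all genes tested. A fold change on this scale understates the change of low genes. Levels per library used 1 scaling of all 9 libraries. Alternatives were other pseudocounts and filters, quantile or median scaling, 1 fit of all 9 libraries, each library left out in turn, and edgeR 4.0.16 and DESeq2 1.42.0 on the recovered reads. The limma fit was also run on simulated counts with 200 changed genes. Those changes were larger than the medians reported here and held no mouse or clone structure, so the simulation does not bear on them. Rows named as the gene symbol followed by -ps were found for 5 of the 87 genes and held at most 1.60% of the reads of that gene. Pseudogene copies under other names were not searched, so the part of copies in the counts is not known. Of the 87 genes, 11 shared over 10% of their exonic bases with another gene, 2 of them on the same strand.

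The genes described and the lists were chosen with earlier results of these data known. Named were every called gene, the 4 highest and 4 lowest fold changes per comparison, the gene with the most reads of each complex, isoform sets, the listed core subunits, called genes of the other lists, Cyc1 and Cycs. Other genes are named to complete a count of non-overlapping groups or as genes near the threshold, and were chosen after their values were seen. The values of 1 of the 87 genes are counted in the summaries but not reported here by name. The complex IV median without Cox4i2 was added after seeing the data. Ndufa4 and Cox6c2 were also put into the complex IV class after values had been seen.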

Additional observations from a re-analysis of the deposited data

How the results depend on the processing

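The median log2 fold change of the 87 genes was 0.21 to 0.25 (de novo expanded over pre-malignant), 0.18 to 0.23 (stably expanded over pre-malignant) and −0.01 to 0.00 (stably over de novo expanded) over 9 other settings, and 0.20 to 0.31, 0.18 to 0.30 and −0.03 to 0.05 when each library was left out in turn. The number of genes called in the stably expanded clone over pre-malignant cells was 8 (1110 of all genes), but 5 (1072) with quantile normalization, 0 (8) in 1 fit of all 9 libraries, 0 (384) with a 2-fold limit and 2 to 8 (369 to 1093) when a library was left out, while DESeq2 called 12 (1645). The range was 0 to 1 without single libraries in both other comparisons, and DESeq2 called 1 gene in de novo expanded over pre-malignant cells. Without a filter on low values the median of all genes moved to −0.18 and −0.31 in the comparisons with pre-malignant cells. Of 1286 values of named genes under an alternative, 1211 kept their direction and side of the threshold, 37 lost a call, 7 gained one and 31 changed sign, in 13 of 86 gene and comparison pairs. In de novo expanded over pre-malignant cells, Cox4i2 was −0.028 with a pseudocount of 5, −0.39 by edgeR and −0.38 by DESeq2. In the stably expanded clone over pre-malignant cells, Cox4i2 was −0.50 by edgeR and −0.50 by DESeq2, Atp5g2 −0.011 and −0.0068, and with quantile normalization Ndufb4 was 0.061 and Ndufs8 −0.00090. Leaving out single libraries gave ranges across 0 in de novo expanded over pre-malignant cells for Atp5g2 (−0.16 to 0.36), Cox4i2 (−1.21 to 1.08), Ndufs3 (−0.047 to 0.26), Ndufv3 (−0.23 to 0.53) and Sdhb (−0.054 to 0.23). In the stably expanded clone over pre-malignant cells the same held for Atp5g2 (−0.20 to 0.15), Cox4i2 (−1.04 to 1.23), Ndufaf5 (−0.25 to 0.18), Ndufb4 (−0.34 to 0.15), Ndufs8 (−0.062 to 0.13), Ndufv1 (−0.010 to 0.15) and Sdhb (−0.15 to 0.025), and over de novo expanded cells for Atp5mpl (−0.057 to 0.095). The cause was not tested. No paired analysis was possible because the columns carry no replicate numbers. With few reads, genes such as Cox4i2 allow no direction to be read.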

Other observations

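Proteins of the mitochondrial ribosome, which translates the mitochondrially encoded subunits, had a median log2 fold change of 0.27 in de novo expanded over pre-malignant cells (71 of 77 genes above 0, none called by limma) and 0.21 in the stably expanded clone (61 of 77 above 0, 4 called higher and 0 lower). Proteasome subunits, which have no part in respiration, had medians of 0.27 (36 of 38 above 0, none called) and 0.25 (33 of 38 above 0, 3 called higher and 0 lower). Over all genes tested, 51% lay above 0 in de novo expanded over pre-malignant cells, and none was called. In the stably expanded clone 50.5% lay above 0 and 4.34% were called higher. The pre-malignant libraries are shared by both comparisons. The differences between these lists and the OXPHOS genes were not tested.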
